A study of Mus musculus with 6 samples.

Results

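Voltage-gated calcium and sodium channel subunits were examined in neural stem cells (NSCs) of WT and Setd5+/- genotype. The members were the genes whose symbol starts with Cacna, Cacnb or Cacng, or with Scn and a digit, leaving out antisense and pseudogene names. The rule took 43 of the 53110 rows of the deposited table. Of these, 40 carried values, 26 for calcium and 14 for sodium channel subunits, and 3 rows that repeat Cacng6, Cacng7 and Cacng8 under other identifiers carried none. A gene was compared where its 6 samples averaged 10 normalized counts or more, and 22 subunits passed this filter, among 16266 genes.

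NSCs were primary cells of the embryonic mouse telencephalic cortex, grown as adherent cultures with bFGF and EGF at 21% O2. The Setd5+/- cells carried a heterozygous mutation of Setd5, a gene for a SET domain chromatin protein, made by CRISPR-Cas9, and the deposited columns name a single mutant clone. The study asked how the transcriptome of mutant NSCs differs from WT at this oxygen level. The labels list 3 WT and 3 Setd5+/- samples, which hold 7143309 to 10004948 reads on genes each. However, the column names describe the 3 samples of a genotype as pieces of one sequencing file, with the same index and lane. Over genes, a chi-square per degree of freedom was computed on reads taken as pairs. It was 0.961 to 0.986 between pieces of a genotype, against 34.9 to 35.0 between genotypes. Taking reads as pairs rests on the spread of reads between these same pieces. The low values are therefore not independent evidence that the pieces differ by sampling noise alone. By their column names and this spread, the pieces were counted as 1 sample, a single library per genotype. The genotype, the clone, the library and the lane cannot be told apart, and no p-value for the genotype is given.

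Each value below is a normalized count, that is, reads on a gene divided by a size factor of the sample, and 3 values per genotype are the 3 pieces of its library. Pieces are not replicates, so where those of the genotypes do not overlap, the difference is set against counting error only. The share of all genes without such overlap is not given. A gene was called when its level differed by at least 2-fold between the libraries and the exact 95% interval of the ratio, which covers counting error only, excluded no change. Setd5 itself had 2498, 2749 and 2780 normalized counts in WT and 2151, 1990 and 2055 in Setd5+/-. Its level was thus lower in the mutant library in every piece, at 0.772 times the WT level (log2 fold change -0.37, interval -0.44 to -0.30), which is under the threshold of a call. In these bulk samples, fewer cells of a type and less RNA per cell cannot be told apart.

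Voltage-gated channels open when the membrane depolarizes. A large α1 (calcium) or α (sodium) protein forms the pore, α2δ and β subunits carry calcium channels to the membrane and tune their gating, and sodium channels have β subunits of their own, which are adhesion proteins of the immunoglobulin superfamily. The γ family started from a muscle calcium channel subunit, and most of its brain members are known as TARPs, which bind AMPA-type glutamate receptors. In the brain these genes are best known for excitability and transmitter release of neurons. Glial progenitors and neural stem cells carry voltage-gated channels too.

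Among the 22 compared subunits, 6 were at least 2-fold higher in Setd5+/- NSCs (among them Cacna1s, Cacna2d3, Cacnb4, Cacng5 and Scn2a) and 4 were at least 2-fold lower (Cacna1c, Cacna2d1, Cacnb1 and Cacng4). Of all 16266 genes, 10.5% were called higher, 6.28% lower and 16.8% in either direction. The interval lay above no change for 10 subunits and below it for 9, against 31.8% and 32.1% of all genes. The median log2 fold change was 0.29 over the subunits and -0.02 over all genes. It was 0.29 for the 16 calcium and 0.04 for the 6 sodium channel subunits. Called subunits could pass the filter through the mutant library alone, as Cacna1s did with a WT mean of 1.66 normalized counts. The count of called subunits is therefore a description of these genes. The families did not shift as blocks, and the L-type pores, the α2δ, the calcium channel β and the γ subunits each held a called rise and a called fall.

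**Figure D1:**
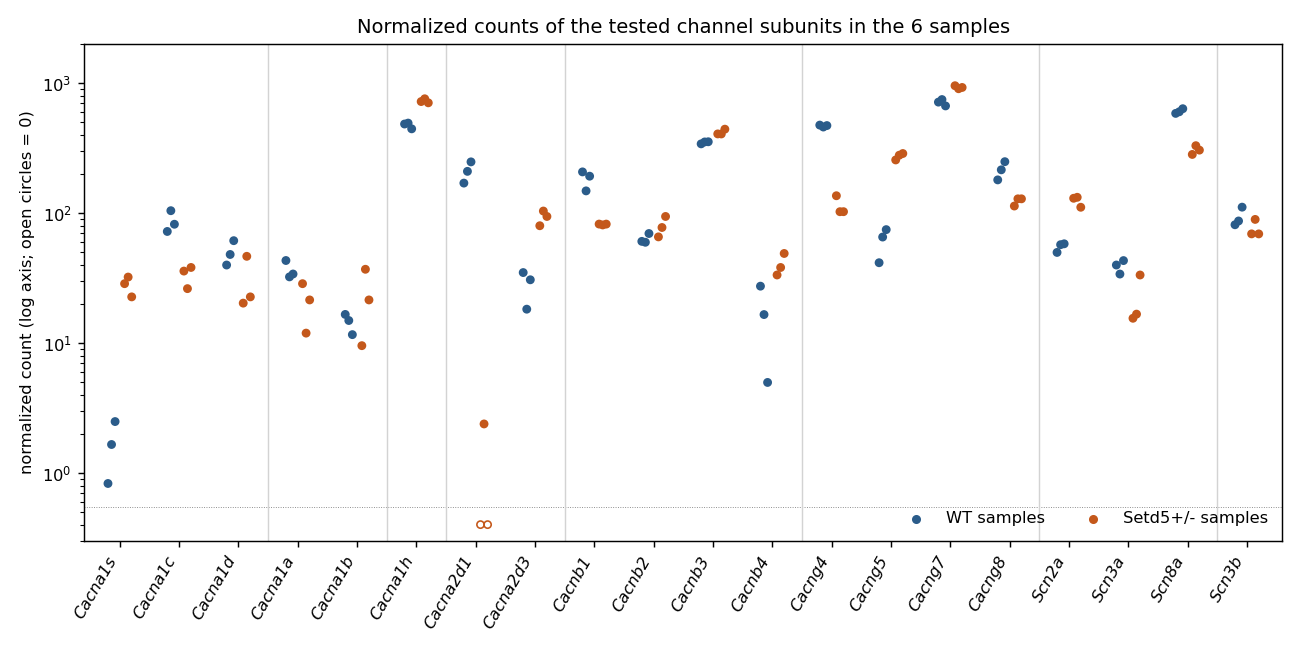
Normalized counts (log axis) of 20 of the 22 compared subunits in the 3 WT pieces (blue) and the 3 Setd5+/- pieces (orange), grouped by role with grey lines; open circles are values of 0. The genotypes stand furthest apart at Cacna2d1, with WT at 170.0 to 247.6 and Setd5+/- at 0, 2.38 and 0.

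The promoters of 4 called subunits are shown because they belong to the largest fall (Cacna2d1), to the α2δ gene that moved the other way (Cacna2d3), to the largest rise (Cacna1s) and to the γ subunit that rose (Cacng5). Each is a RefSeq window in GRCm38.p6 from 250 bases before to 50 bases after the annotated start, 5′ to 3′ on the gene's strand, with every CG in capitals. They are chr5:15934441-15934740 (+), chr14:29721815-29722114 (-), chr1:136052561-136052860 (+) and chr11:107915006-107915305 (-).
Cacna2d1: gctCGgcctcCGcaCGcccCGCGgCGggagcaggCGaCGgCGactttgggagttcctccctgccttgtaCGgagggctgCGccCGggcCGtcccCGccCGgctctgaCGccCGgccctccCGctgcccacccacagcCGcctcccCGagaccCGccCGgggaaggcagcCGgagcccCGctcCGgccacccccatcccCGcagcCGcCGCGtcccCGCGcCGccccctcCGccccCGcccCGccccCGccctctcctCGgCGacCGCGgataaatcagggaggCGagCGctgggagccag
Cacna2d3: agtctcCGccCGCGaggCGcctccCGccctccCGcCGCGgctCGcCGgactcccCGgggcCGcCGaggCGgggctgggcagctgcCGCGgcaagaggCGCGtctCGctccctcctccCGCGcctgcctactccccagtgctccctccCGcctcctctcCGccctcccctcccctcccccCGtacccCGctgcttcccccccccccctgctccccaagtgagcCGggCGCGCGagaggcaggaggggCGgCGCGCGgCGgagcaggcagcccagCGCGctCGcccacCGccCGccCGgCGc
Cacna1s: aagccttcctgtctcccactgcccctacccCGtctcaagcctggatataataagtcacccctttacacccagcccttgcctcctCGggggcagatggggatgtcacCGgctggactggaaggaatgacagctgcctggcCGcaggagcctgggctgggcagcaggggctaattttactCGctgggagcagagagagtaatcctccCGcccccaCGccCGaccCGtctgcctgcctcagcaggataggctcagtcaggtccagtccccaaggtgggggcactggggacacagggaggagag
Cacng5: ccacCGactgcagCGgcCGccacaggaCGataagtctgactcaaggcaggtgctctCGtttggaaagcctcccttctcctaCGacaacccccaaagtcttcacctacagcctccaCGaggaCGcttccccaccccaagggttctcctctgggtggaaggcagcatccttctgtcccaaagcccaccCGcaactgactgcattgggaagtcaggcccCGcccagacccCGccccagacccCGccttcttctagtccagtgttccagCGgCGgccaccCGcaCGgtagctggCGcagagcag

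The windows of Cacna2d1 and Cacna2d3 are alike in base make-up, although one gene fell and the other rose. They hold 42 and 41 CG, more than 97% and 96.5% of all 32851 promoter windows, whose median is 7. The Cacng5 window shown holds 17 CG and that of Cacna1s 9, which 68.6% and 54.2% of windows fall below. Cacng5 has another window (chr11:107911313-107911612), not shown, with 5 CG, which 38% of windows fall below, and no GGGCGG. The sequence GGGCGG was read on both strands and overlaps the CG count by its own CG. It occurs 7 times in the Cacna2d1 window, 6 times in Cacna2d3, 2 times in the Cacng5 window shown and once in Cacna1s. It is found in 35.7% of all promoter windows. TATAAA, found in 13.6% of windows, occurs in none of these 4. In all, 30 of the 40 subunits matched the promoter table, with 41 windows and 2 to 63 CG in each (median 9), and Cacng4 had no entry.

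The L-type pore genes differed in direction. Cacna1s, which encodes the pore of the skeletal muscle L-type channel, lies on chromosome 1 (chr1:136052750-136119822, mm10). It had 0.829, 1.65 and 2.48 normalized counts in WT and 28.6, 32.2 and 22.6 in Setd5+/-. All mutant pieces were above all WT pieces, on 6 and 70 reads, and the log2 fold change was 4.07 (interval 2.40 to 6.41). With so few WT reads its size depends on the scale, at 3.44 on log2(normalized count + 1) and 2.30 on log2(normalized count + 5). An antisense gene, Gm37759, shares 1309 of the 6550 exon bases of Cacna1s and went from 2.76 to 24.2 normalized counts. The sources used here do not give whether reads were counted by strand, so reads of the pair cannot be told apart. The flanking gene Tmem9 was also called higher, from 758.1 to 1601 normalized counts, and the 1044 compared genes of chromosome 1 had a median log2 fold change of 0.54, against -0.16 to 0.02 for the other chromosomes. The part of these in the rise of Cacna1s was not tested. Of 10 muscle markers, Myog and Ckm were at 0 in all samples and the other 8 were detected. Their summed level was 139.0 to 157.6 normalized counts in WT and 40.5 to 47.6 in Setd5+/-. Most of the WT sum, and most of its fall, came from Actc1 (115.4 to 25.0).

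Cacna1c (chr6:118587240-119196418), the widely expressed L-type pore of heart and brain, went the other way. It had 72.1, 104.2 and 82.0 normalized counts in WT and 35.8, 26.2 and 38.1 in Setd5+/-, with no overlap. Its level was 2.58-fold lower in the mutant library (log2 fold change -1.37, interval -1.90 to -0.87). Cacna1d, the L-type pore that opens at more negative voltages, had means of 49.7 and 29.8 with overlapping pieces (log2 fold change -0.74). The retinal Cacna1f had no read.

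The presynaptic pore genes were not called. Cacna1a, the P/Q-type pore, had means of 36.4 and 20.7 normalized counts (log2 fold change -0.82, interval -1.53 to -0.14). Cacna1b, the N-type pore, had 14.4 and 22.6, with overlapping pieces and an interval that includes no change (-0.16 to 1.48). The R-type pore gene Cacna1e was nearly silent, with 2 and 8 reads.

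Cacna1h, a pore of the low-voltage-activated T-type channel, was by far the leading calcium pore gene in both libraries on the scale of level per exon length. It had 48.5 normalized counts per kb of exon in WT, where the next calcium pore gene was Cacna1c at 4.06, and 74.6 in Setd5+/-, where the next was Cacna1s at 4.24. The 3 WT pieces held 484.3, 492.2 and 444.7 normalized counts and the Setd5+/- pieces 721.1, 757.4 and 705.2. The groups did not overlap, but the rise of 1.54-fold (log2 fold change 0.62, interval 0.48 to 0.76) was under the threshold. The other T-type genes were low. Cacna1g lay just outside the filter with 16 and 35 reads, or 4.42 and 13.9 normalized counts, and Cacna1i had 12 and 8 reads.

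The α2δ subunits are extracellular proteins that traffic calcium channels. Cacna2d1 (chr5:15934691-16374511), whose product binds gabapentin, had 170.0, 209.3 and 247.6 normalized counts in WT. In Setd5+/- it had 0, 2.38 and 0. These are 757 reads against 2, so the gene was near silent in the mutant library. The ratio was 263-fold (log2 fold change -8.04, interval -13.3 to -5.55), and its size is set by 2 reads. It was -5.21 on log2(normalized count + 5), and -5.87 without Setd5+/- replicate 2, the piece that holds these reads. The nearest compared genes also differed between the libraries. Pclo, for a presynaptic scaffold protein, lies 1071 kb before it and fell from 168.1 to 21.0 normalized counts, and Sema3c, for a secreted semaphorin, lies 1200 kb after it and rose from 25.4 to 82.6.

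Cacna2d3 (chr14:28904943-29721864) rose where Cacna2d1 fell. It had 34.8, 18.2 and 30.6 normalized counts in WT and 79.9, 103.6 and 94.1 in Setd5+/-. The groups did not overlap, and the level was 3.32-fold higher in the mutant library (log2 fold change 1.73, interval 1.24 to 2.24). By level per exon length, Cacna2d1 led the family in WT with 16.8 normalized counts per kb, ahead of Cacna2d3 at 3.20. In Setd5+/- Cacna2d3 led with 10.6, and Cacna2d1 was at 0.0639. Cacna2d2 had 19 and 4 reads, and Cacna2d4 had 2 and 10.

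Among the cytoplasmic β subunits of calcium channels, Cacnb3 had the highest level per exon length, with 87.0 normalized counts per kb in WT and 104.3 in Setd5+/-. Its log2 fold change was 0.26 (interval 0.09 to 0.43). Cacnb1 (chr11:98001508-98023034), which includes the skeletal muscle isoform, had 207.3, 148.1 and 192.1 normalized counts in WT and 82.2, 81.0 and 82.2 in Setd5+/-. The mutant pieces lay within 2 normalized counts of each other and below every WT piece, at a 2.23-fold lower level (log2 fold change -1.16, interval -1.49 to -0.83).

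Cacnb4 (chr2:52428320-52676831), the gene mutated in the lethargic mouse, moved the other way. It had 27.4, 16.5 and 4.97 normalized counts in WT and 33.4, 38.1 and 48.8 in Setd5+/-. The level was 2.46-fold higher in the mutant library (log2 interval 0.62 to 2.01), but the log2 fold change was 0.87 and no longer called without WT replicate 3, the lowest piece, and 1.90 without WT replicate 1, the highest. A transcript of the opposite strand, A430018G15Rik, shares 1433 of its 8963 exon bases and went from 3.59 to 14.7 normalized counts. Its reads cannot be told apart from those of Cacnb4. Cacnb2 had means of 63.2 and 79.0 with overlapping pieces, and its interval includes no change (-0.08 to 0.72).

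The γ family held the highest level of all subunits and moved in both directions. Cacng7, a type II TARP, led all subunits per exon length, with 290.7 normalized counts per kb in WT and 380.4 in Setd5+/-, and a log2 fold change of 0.39 (interval 0.27 to 0.50). Cacng5 (chr11:107874605-107915055), the other type II TARP, had 41.5, 65.4 and 74.5 normalized counts in WT and 256.2, 278.7 and 287.1 in Setd5+/-. Every mutant piece was more than all WT pieces, at a 4.53-fold higher level (log2 fold change 2.18, interval 1.87 to 2.50).

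The type I TARPs that passed the filter were Cacng4, which was called lower, and Cacng8, which was not called. Cacng4 (chr11:107732357-107794557) had 475.2, 459.2 and 471.2 normalized counts in WT and 135.9, 102.4 and 102.4 in Setd5+/-. The groups were well apart, and the level was 4.13-fold lower (log2 fold change -2.04, interval -2.31 to -1.79). Cacng4 and Cacng5 lie next to each other on chromosome 11, 80.0 kb apart on the same strand, and were called in opposite directions. Per exon length, Cacng4 was second among all subunits in WT at 131.1 normalized counts per kb, against 15.8 for Cacng5. In Setd5+/- the order was turned, with 31.8 for Cacng4 and 71.5 for Cacng5. Cacng8 had means of 214.5 and 123.5 normalized counts (log2 fold change -0.80, interval -1.07 to -0.52). The miRNA gene Gm23450 overlaps 3.88% of its exon bases and went from 24.3 to 12.7. Cacng2, the type I TARP known as stargazin, had 2 reads in WT and none in Setd5+/-, and Cacng3 had none.

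**Figure D2:**
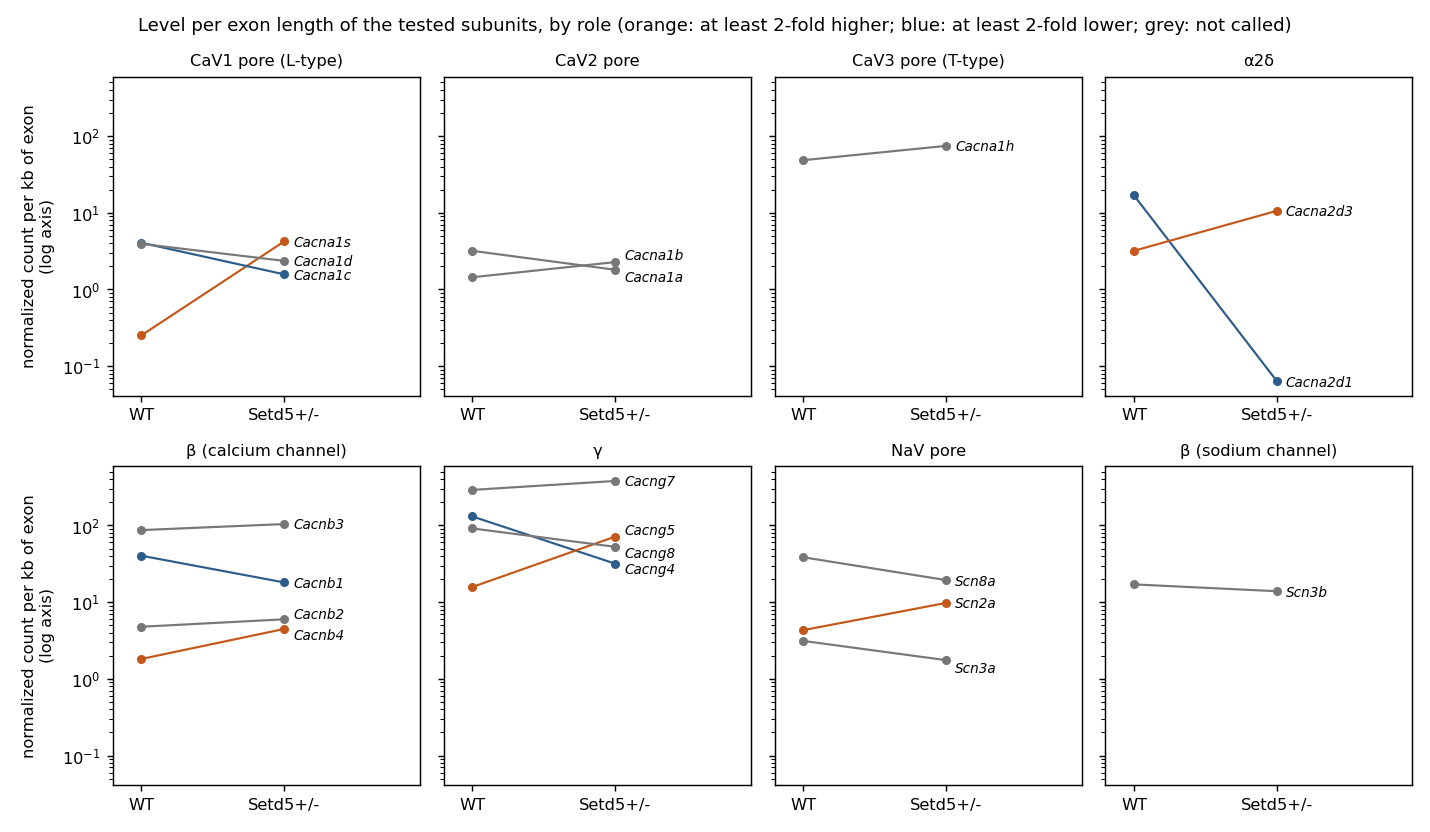
Mean level of 20 of the 22 compared subunits in WT and Setd5+/- NSCs, in normalized counts per kb of exon (log axis), in 8 panels by role; orange lines are subunits at least 2-fold higher in Setd5+/-, blue lines at least 2-fold lower and grey lines those not called. Lines cross in several panels, among them those of Cacna1s and Cacna1c, Cacna1a and Cacna1b, Cacna2d1 and Cacna2d3, and Cacng4 and Cacng5. Cacnb3, Cacng7 and Scn8a stay at the top of their panels.

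Among the sodium pores, Scn8a, the main pore at mature nodes of Ranvier, had the highest level per exon length in both libraries, with 38.5 normalized counts per kb in WT and 19.4 in Setd5+/-. It had 584.6, 601.5 and 635.2 normalized counts in WT and 282.5, 329.9 and 305.0 in Setd5+/-. The groups did not overlap. The level was 1.99-fold lower (log2 fold change -0.99, interval -1.16 to -0.82), so Scn8a missed the threshold narrowly, and it was past it at -1.03 when counts were scaled by the library total.

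Scn2a (chr2:65620771-65767447), the pore of developing axons, rose. It had 49.8, 57.1 and 58.0 normalized counts in WT and 129.9, 132.2 and 110.8 in Setd5+/-, with no overlap, and was 2.26-fold higher (log2 fold change 1.18, interval 0.81 to 1.56). Its neighbour Scn3a, the pore typical of the embryonic brain, lies 53.1 kb away and had means of 38.9 and 21.8 (log2 fold change -0.83, interval -1.53 to -0.18).

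Among the sodium channel β subunits, Scn3b had means of 93.0 and 75.8 normalized counts with overlapping pieces, and its interval includes no change (-0.67 to 0.08).

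**Figure D3:**
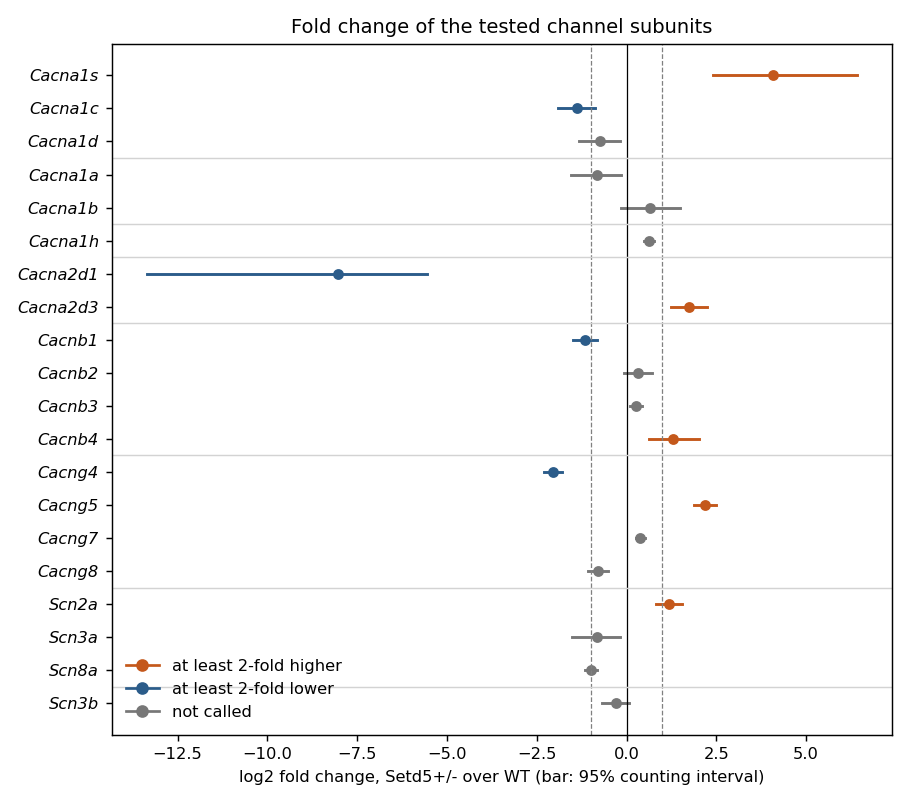
Log2 fold change of Setd5+/- over WT for 20 of the 22 compared subunits, ordered by role, with bars for the 95% counting interval and dashed lines at 2-fold. The points run from -8.04 for Cacna2d1 to 4.07 for Cacna1s, with subunits called higher in orange and those called lower in blue.

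The remaining 18 subunits were under the filter, with at most 51 reads over both libraries. Cacna1f, Cacng3 and Scn10a had no read at all, and the other 15 were detected. Besides those already given, Scn1a, the pore of inhibitory neurons, had 21 reads in WT and 4 in Setd5+/-, the peripheral pore genes Scn11a and Scn9a had 12 and 0 reads and 0 and 2 reads, and Scn7a, of the atypical sodium channel, had 12 and 2. Cacng6 had 16 and 24 reads. The skeletal muscle genes Scn4a and Cacng1 had 2 and 2 reads each, and the β subunits Scn2b and Scn4b had 10 and 6 and 4 and 0. The depth behind these genes is small. Cacna1g is an exception among those with reads in both libraries, since its interval (log2 0.37 to 3.07) excludes no change. A gene with no read may still have had up to 1.66 normalized counts in WT or 2.38 in Setd5+/-.

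**Figure D4:**
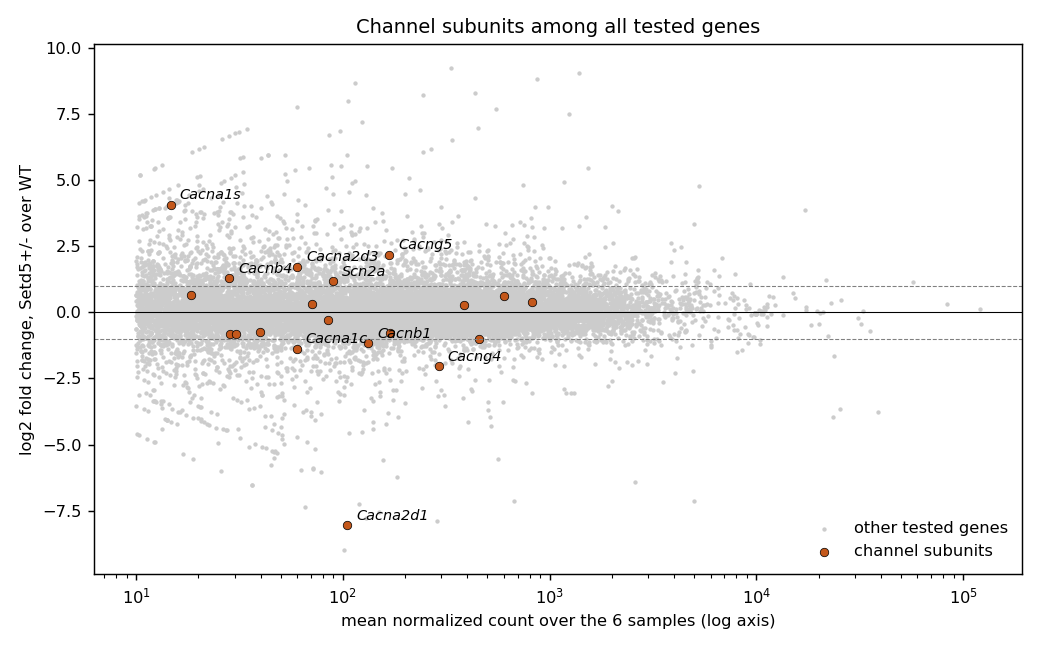
Log2 fold change of Setd5+/- over WT against the mean normalized count (log axis) for the compared genes (grey) and 20 of the 22 compared channel subunits (orange); dashed lines mark 2-fold and called subunits are named. Cacna1s sits at the low end of the counts, while Cacng4 and Cacng5, at -2.04 and 2.18, lie at higher counts.

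Of 35 genes for channel partners and regulators, 27 passed the filter, and 7 were called higher and 4 lower, where 10.5% of all genes were higher and 6.28% lower. The median log2 fold change was -0.25. The rises included Ank3 (55.8 to 126.7 normalized counts), whose product anchors sodium channels, Nfasc (81.4 to 197.0), Nrcam (1209 to 3662) and the spectrin gene Sptbn4 (17.7 to 37.7). Gem, whose small GTPase product inhibits calcium channels, rose from 116.0 to 478.1. Stac2, for an adaptor of L-type channels, had the largest rise, from 0.552 to 20.3 on 2 and 51 reads (log2 fold change 5.20, interval 2.59 to 10.6). The calcium sensor gene Cabp1 rose from 12.7 to 30.2.

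The falls among the partners included a pair of intracellular FGF genes that bind sodium channels, Fgf12 (79.5 to 21.4 normalized counts) and Fgf14 (50.8 to 15.5). Tmem37, for a protein related to the γ subunits, had the largest fall, from 127 reads in WT to 0 in Setd5+/-, 14.7-fold below WT when set to a floor of 3 read pairs over the mutant library (95% counting limit of the log2 fold change -3.54). The calmodulin genes Calm2 and Calm3 and the Camk2 kinase genes were not called.

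Of 24 genes for calcium release, store entry and extrusion, 20 passed the filter, and 7 were called higher and 2 lower, beside the same 10.5% and 6.28% of all genes. The median log2 fold change was 0.50. The inositol trisphosphate receptors Itpr1 (64.0 to 222.0 normalized counts) and Itpr3 (9.11 to 63.1) rose, whereas the ryanodine receptor gene Ryr3 fell from 319.1 to 41.3. Atp2a3, for a calcium pump of the endoplasmic reticulum, had the largest rise, from 0.552 to 39.7 on 2 and 100 reads. The plasma membrane pump Atp2b4 (291.3 to 760.9), the mitochondrial exchanger Slc8b1 (47.2 to 135.4), the store-operated channel Orai2 (23.7 to 60.8) and the lysosomal channel Tpcn1 (585.0 to 1368) rose as well. Slc8a1, for the sodium-calcium exchanger of the plasma membrane, had the largest fall, from 20.2 to 1.59 on 73 and 4 reads. Its log2 fold change was -3.67 (interval -6.76 to -1.71). Over both lists, 14 of 47 compared genes were higher and 6 lower, with a median of 0.04, while 16.8% of all genes were called in either direction. Called genes of these lists, too, could pass the filter through a single library, as Stac2 and Atp2a3 did through Setd5+/- and Slc8a1 through WT. The counts are a description, and no test was made of these shares.

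**Figure D5:**
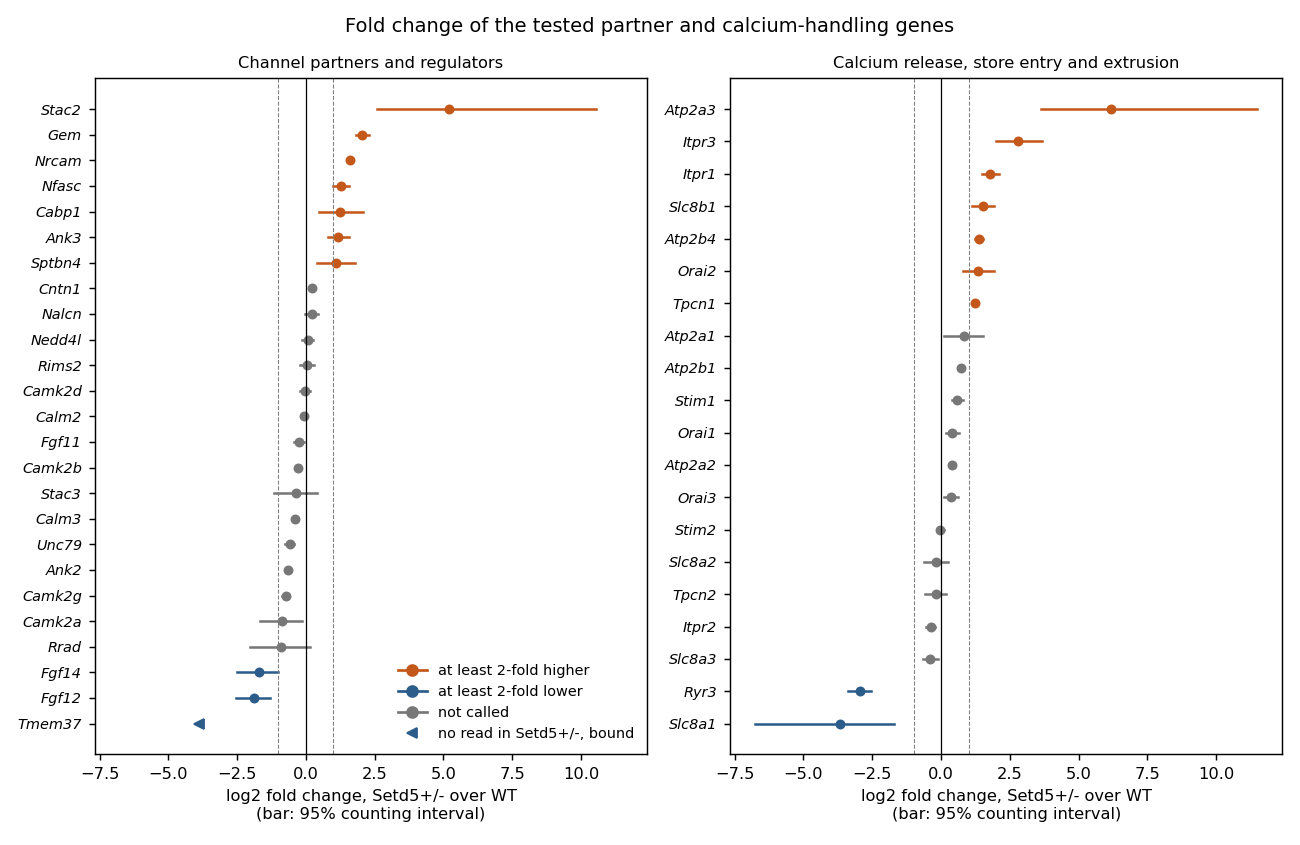
Log2 fold change of Setd5+/- over WT, with 95% counting intervals, for compared channel partners (left) and the 20 compared genes of calcium handling (right); orange is at least 2-fold higher, blue at least 2-fold lower, and the triangle for Tmem37 is a bound, since the gene had no read in Setd5+/-. The partners run from the bound of Tmem37 to Stac2 at 5.20, and the calcium handling genes from Slc8a1 to Atp2a3.

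Markers of other cell types also differed between the libraries, where 10.5% of all compared genes were called higher and 6.28% lower. Of 12 neuronal markers, 9 passed the filter and 6 were called lower, none higher. Syt1 had the largest fall (64.9 to 5.16 normalized counts), Dcx went from 248.5 to 26.2, and Rbfox3, Stmn2 and Nefm were at 0 in Setd5+/- on 27, 2 and 17 reads in WT. Map2, with the largest rise on the list, was not called (9983 to 12445), and with it the summed list was 11126 to 11477 in WT and 12852 to 12905 in Setd5+/-. Without Map2 it was 1225 to 1292 in WT and 392.1 to 461.0 in Setd5+/-. Of 10 oligodendrocyte lineage markers, 8 passed the filter and 2 were lower, with the largest fall in Sox10 (298.2 to 1.59) and the largest rise, not called, in Cspg4 (768.9 to 1448). Their sum was 42112 to 42984 in WT and 25318 to 26265 in Setd5+/-, and Mag and Mog, with 4 and 7 reads in WT, were at 0 in Setd5+/-. Olig1 (28867 to 15491) and Olig2 (10646 to 6078), neither called, carried that sum, and the other 8 markers summed to 2925 to 3055 in WT and 4004 to 4229 in Setd5+/-. The astrocyte list held 3 higher and 2 lower of 8, led by Gfap (17.1 to 263.3) and Slc1a2 (4678 to 1225), with sums of 33689 to 33998 and 32315 to 32712. All 10 NSC markers were detected, with Sox2 at 3119 and 2732 normalized counts. Of these, 3 were lower, with the largest fall in Prom1 (24.6 to 2.38) and the largest rise, not called, in Vim (9095 to 13822), and their sum was 54775 to 55123 in WT and 34149 to 34467 in Setd5+/-. Fabp7, called lower (36015 to 11490), carried the fall of the sum, and the other 9 markers summed to 18864 to 18973 in WT and 22581 to 23084 in Setd5+/-. The part of these markers in the subunit differences was not tested.

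Most markers of muscle, mesenchymal, microglial and endothelial cells were under the filter. Of the muscle markers, 2 passed it, Ttn (47 and 25 reads) and Actc1, which fell from 115.4 to 25.0 normalized counts. Of 8 mesenchymal markers, Prrx1 alone passed (382.1 and 627.0, not called), with sums of 386.7 to 405.5 and 570.9 to 670.5, and Twist1 and Lum were at 0 in all samples. Of 8 microglial and endothelial markers, 2 passed, Kdr, which rose from 6.35 to 17.9, and Csf1r (98.0 and 53.6, not called), with sums of 93.5 to 127.7 and 62.0 to 95.3, and Cx3cr1 and Ptprc were at 0 in all samples.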

How the data were processed

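RNA-seq libraries of WT and Setd5+/- NSCs had been prepared with TruSeq RNA reagents and read as pairs. The authors trimmed reads with Trimmomatic, aligned them with Bowtie2 to mm10 and used DESeq2. The counting program, strand setting, annotation and versions are not given in the sources used here. The authors deposited normalized counts, that is counts divided by DESeq2 size factors. Since the decimal points of these are lost, they were treated as another unit than counts, and no count model was run. The table also holds the authors' own log2 fold changes, standard errors, test statistics and p-values, which were not used.

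Points were restored by finding the value of 1 read in each sample and placing each point where the value was a whole number of reads (tolerance 6e-11 normalized counts). Of 52438 genes, 39571 had 1 choice, and the deposited mean equalled the restored one in all of these. It settled 12828 more, among them 17 subunits, and in 39 genes, none a subunit, the choice with the least spread was taken. Both reads of a pair appear to be counted, since the variance over the mean of reads was 1.95 in WT and 1.94 in Setd5+/-, so intervals were exact conditional binomial intervals on read pairs. The libraries hold 30004634 and 21435546 reads on genes. For a gene with no read in a genotype, a floor of 3 read pairs was used. In simulated data, 314628 of 314628 values were restored, and 199 of 200 changed genes were recovered with 26 false calls among 16309 genes. Apart from the planted changes, the simulated samples differed by counting noise only. The false calls therefore give no error rate for differences between libraries or clones. The simulation was redrawn with more single reads after a first run had failed to restore a large share of the values.

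Normalized counts were filtered at a mean of 10 and compared as ratios of genotype means in Python 3.11.15 with scipy 1.17.1, and limma 3.58.1 in R 4.3.3 served as an alternative. Exon lengths, coordinates and overlaps are from GENCODE M21 (GRCm38, the same assembly as mm10). Every subunit was to be named, and from each list the compared member with the largest rise and the largest fall, with Setd5. Other list members, the marker genes given at 0 and flanking genes were chosen after their values were seen. The results of some subunits and partner genes are not reported here, although counts include them. The members and lists were chosen with earlier results of these data known. The alternatives were other filters, pseudocounts, scalings, a lower fold, limma and leaving out each sample.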

Additional observations from a re-analysis of the deposited data

How the results depend on the processing

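In the 14 alternatives that change neither the filter nor the fold, the 22 subunits kept their direction. Of these 308 values, 298 kept their side of the threshold, 1 lost its call and 9 gained one, and 9 of the 10 called subunits were called in each. All alternatives reuse the same 2 libraries, so they do not show whether a call would hold in another library or clone. A mean of at least 50 normalized counts left fewer genes, with 3 subunits higher in place of 6, and 8 pathway genes higher and 2 lower in place of 14 and 6. Under it, 8.31% of all compared genes were called higher and 4.74% lower. A 1.5-fold threshold gave 9 subunits and 10 pathway genes lower in place of 4 and 6, while the share of all genes called lower went from 6.28% to 14.7%. Without a filter beyond 3 read pairs, where genes with no read in a genotype enter at their bound, the median log2 fold change of the subunits was 0.10, and Cacna1g entered as a called rise. It was 0.11 without Setd5+/- replicate 2 and 0.18 without Setd5+/- replicate 3, in place of 0.29, and 0.26 without the chromosome 1 member. Leaving out 1 piece gave 5 to 7 subunits higher and 4 to 6 lower, beside 10.2% to 10.9% and 6.02% to 6.6% of all genes. Cacnb4 was 0.87 without WT replicate 3 and not called. Subunits gaining a call were Cacna1d (-1.21 without Setd5+/- replicate 2), Cacna1a (-1.13) and Cacna1b (1.02) without Setd5+/- replicate 1, Scn3a (-1.28 without Setd5+/- replicate 3), and Scn8a, at -1.02 without WT replicate 1, -1.05 without Setd5+/- replicate 2 and -1.03 by library total, upper quartile and voom. Same-numbered samples did not deviate together (correlations -0.007 to 0.005, and not every sample was closest to its own number). With the replicate block, 10.3% of all genes were called higher and 6.34% lower by limma. It gave 6 subunits higher and 4 lower, and 14 and 6 pathway genes, as without the block. Its p-values compare pieces of 2 libraries. Depth limits the subunits under the filter.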

Other observations

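The compared protein-coding genes on either side of the 10 called subunits were read for their own levels, a choice made after the subunit values were seen. Of these 20 flanking genes, 2 were called in the same direction as their subunit, 4 in the other and 14 were not called. Cacng4 and Cacng5, themselves called subunits, are 2 of the 4. Of all compared genes, 10.5% were called higher, 6.28% lower and 16.8% in either direction. The same direction was seen for Tmem9 beside Cacna1s and Pclo before Cacna2d1. The other direction was seen for Sema3c after Cacna2d1, for Cacng4 and Cacng5, which flank each other, and for Plxdc1 beside Cacnb1, which rose from 0.552 to 26.2 normalized counts where Cacnb1 fell. The 2 genes beside Cacnb4, Arl5a and Stam2, had log2 fold changes of -0.15 and 0.21, and those beside Cacna2d3, Wnt5a and Selenok, 0.16 and -0.52.

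Neighbouring subunits at most 318.1 kb apart on a chromosome differed in direction in each of the 4 pairs in which both genes were compared. These were Cacng4 (-2.04) and Cacng5 (2.18) at 80.0 kb, Scn3a (-0.83) and Scn2a (1.18) at 53.1 kb, Cacna2d3 (1.73) and Cacna1d (-0.74) at 318.1 kb, and Cacng7 (0.39) and Cacng8 (-0.80) at 22.5 kb, as log2 fold changes. Subunits much further apart were not paired. Of these, Cacnb2 (0.32) and Cacna1b (0.66) on chromosome 2 shared a direction, and Cacnb3 (0.26) and Scn8a (-0.99) on chromosome 15 did not. No test was made of the 4 pairs, which were noticed in the data.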
